A study of Mus musculus with 8 samples.

Results

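The TRIM genes encode the tripartite motif family of ubiquitin ligases and related proteins. They were followed in cultures labelled as mouse hepatic stellate cells after knockdown of the kinase PAK4. Members were the protein-coding rows of the deposited table whose gene symbol was Trim followed by a number, which gave 68 genes out of 45777 rows, of which 21949 were protein-coding. Of these 68 members, 48 had enough reads to be tested. The siPAK4 group consisted of cells labelled as primary hepatic stellate cells, from wild-type male C57BL/6 mice. These cells were transfected with an siRNA against PAK4 while they activated. The siControl group consisted of cells of the same strain, sex and genotype that received a control siRNA. Each group had 4 libraries of polyadenylated RNA, all labelled as batch 1. The labels do not give the age of the mice, the purity of the cells, the time after transfection, or whether replicates are separate animals or cultures. The p-values therefore reflect only how far these 8 libraries vary, and that variation may be technical.

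A TRIM protein carries a RING finger, 1 or more B-boxes and a coiled coil, followed by a C-terminal domain that differs between subfamilies. The RING finger recruits an E2 enzyme and passes ubiquitin to a substrate that the C-terminal domain binds. Some members, among them Trim14, Trim16, Trim29, Trim44 and Trim66, lack a RING finger, so not every gene named here encodes a typical ligase. Many TRIM proteins act in innate immunity, where they modify sensors of foreign nucleic acid and their adaptors or bind viral capsids, and several of their genes are induced by interferon. Others regulate chromatin, microtubules or muscle proteins. In the liver, stellate cells, macrophages and sinusoidal endothelial cells can all respond to interferon.

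The siPAK4 libraries held 55728583 to 59205049 counts and the siControl libraries 57297561 to 61535063. Pak4 itself averaged 6.32 ± 1.13 CPM (read counts per 1e6, on the library size scaled by edgeR's TMM method) in siPAK4 and 17.2 ± 1.14 CPM in siControl (SD, n = 4 each; log2 fold change −1.44, SE 0.118, edgeR quasi-likelihood adjusted p = 9.4e-06). On the second principal component, which held 13.4% of the variance, siPAK4 replicate 3 stood apart from the other libraries. Of 7 stellate cell markers, Dcn, Reln, Des and Pdgfrb were well detected, while Lrat was too low to test. Together they summed to 495 to 614 CPM in siPAK4 and 474 to 546 CPM in siControl. Of the 6 tested, Des (−0.54, adjusted p = 0.014) and Pdgfrb (−0.85, adjusted p = 0.00043) were lower in siPAK4 and 4 did not pass. Summed markers of activated stellate cells were at 500 to 702 CPM in siPAK4 and 1143 to 1576 CPM in siControl, and those of endothelial cells at 2826 to 4133 CPM in siPAK4 and 4770 to 4827 CPM in siControl. The endothelial markers did not move together, with 4 of 8 lower, 2 higher (Clec14a and Tek) and 2 not past the threshold. The 9 macrophage markers summed to 1063 to 1452 CPM in siPAK4 and 1817 to 2129 CPM in siControl, with 6 lower and 2 of the 8 tested not past the threshold. Hepatocyte markers summed to 6.35 to 16.2 CPM in siPAK4 and 1.37 to 3.16 CPM in siControl. Of 4 neutrophil markers, S100a8 averaged 11.8 CPM in siPAK4 and 8.66 CPM in siControl without passing (log2 fold change 0.45, adjusted p = 0.065). Another, Ly6g, had no read in any library. In both groups the summed endothelial and macrophage markers exceeded the summed stellate markers, so the TRIM levels cannot be assigned to stellate cells alone. The RNA is bulk RNA, so fewer cells of a type and less RNA per cell cannot be told apart in any value below. The part of the differences in marker levels in the results was not tested.

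The TRIM genes spanned a wide range of expression. In the deposited TPM, which are scaled to gene length and can be compared between genes, 30 members averaged at least 10 TPM over all 8 libraries and 28 averaged under 1 TPM. Trim28, the corepressor that KRAB zinc finger proteins recruit to chromatin, was the most abundant, with 129, 129, 97.7 and 118 TPM in siPAK4 replicates 1 to 4 and 104, 107, 103 and 99.6 TPM in siControl replicates 1 to 4. Its groups overlapped, because siPAK4 replicate 3 lay below all 4 siControl libraries. Trim35, whose product acts in macrophage differentiation and signalling, came next with 106, 108, 94.6 and 96.4 TPM in siPAK4 and 90.2, 96.9, 92.8 and 89.5 TPM in siControl. Trim30a, an interferon-inducible gene of the mouse, was at 97.8, 110, 97.8 and 94.3 TPM in siPAK4, against 52.8, 38.2, 48.5 and 36.4 TPM in siControl. All siPAK4 libraries exceeded all siControl libraries for Trim30a. Its level was close to that of Trim35 in siPAK4 and under that of Trim35 in every siControl library. Trim25 had 55.7, 47.8, 37.4 and 50 TPM in siPAK4 and 44.2, 38.3, 37.0 and 32.0 TPM in siControl. The fifth was Trim47, a gene at a human locus linked to small-vessel disease of the brain, with 48.8, 48.3, 39.7 and 43.8 TPM in siPAK4 and 28.9, 32.9, 27.8 and 28.8 TPM in siControl.

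**Figure D1:**
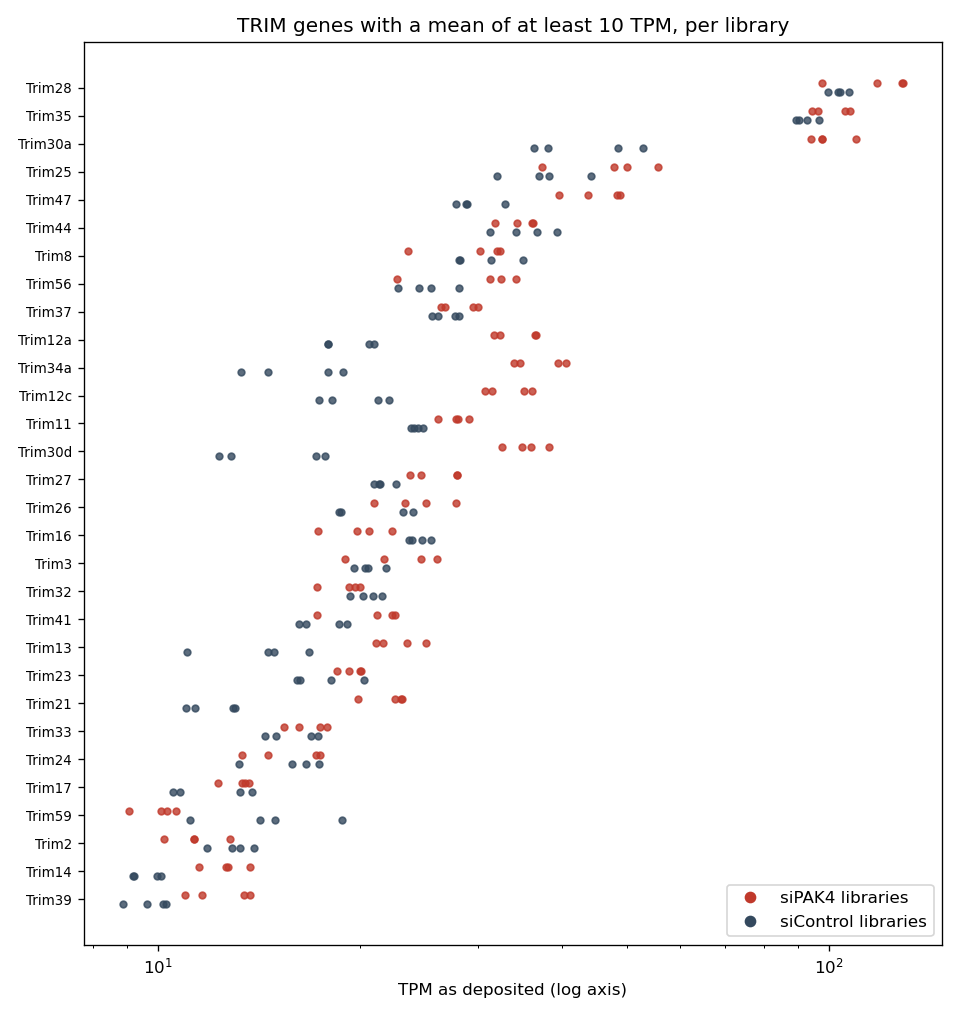
Deposited TPM on a log axis in each of the 4 siPAK4 and 4 siControl libraries for the 30 TRIM genes with a mean of at least 10 TPM, in order of the mean. Trim28 and Trim35 lie near 100 TPM in both groups, whereas Trim30a, Trim34a, Trim30d, Trim12a, Trim12c, Trim13 and Trim21 have every siPAK4 point to the right of every siControl point. The same holds for Trim47, Trim27, Trim14, Trim39 and Trim11, and the reverse for Trim16 and Trim59.

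The sum over all 68 members was 940 to 1101 TPM in siPAK4 libraries and 761 to 861 TPM in siControl libraries. The 15 genes listed as interferon-inducible made up 38.0% to 39.2% of that sum in siPAK4 and 26.9% to 31.2% in siControl. These shares are given as a description. Among the 30 members at 10 TPM or more, the coefficient of variation of the CPM between replicates had a median of 5.52% in siPAK4 and 7.06% in siControl. The 10 interferon-inducible ones among them had a median of 6.60% in siPAK4 and 11.4% in siControl, and the other 20 had 4.45% in siPAK4 and 4.57% in siControl.

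Of the 48 tested members, 17 were higher in siPAK4, 4 were lower and 27 did not pass the threshold of 0.05 on the adjusted p, which was adjusted over all 17975 tested genes. The 17 higher members were 35.4% of those tested, where 12.4% of all tested genes were called higher. They include Trim54, which entered the test through its siPAK4 reads alone. The 4 lower ones were 8.33%, where 14.5% of all tested genes were called lower. In either direction 43.8% of the members were called, against 26.9% of all tested genes. The median log2 fold change of the tested members was 0.16, beside 0.0052 over all tested genes. The groups did not overlap for 18 members that were higher and 5 that were lower, with 14% of all tested genes not overlapping in the higher direction and 14.8% in the lower. The balance over all genes depended on the scaling: 46.1% of called genes were higher with TMM, 67.6% with library totals and 67.9% with log2(FPKM + 1). The number of all tested genes called higher with TMM was 2227. With library totals 21 of 48 members were higher and 3 lower, beside 3877 and 1859 of all 17975 tested genes. With log2(FPKM + 1), 22 members were higher and 3 lower, beside 3619 and 1712 of all tested genes. Without siPAK4 replicate 3, 19 of 49 tested members were higher and 4 lower, beside 2496 and 2998 of all 18220 genes tested there.

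A change of at least 2-fold that passed the test was found for 6 members that were higher (Trim54, Trim30d, Trim69, Trim34a, Trim30a and Trim34b) and for 0 that were lower. The fold of Trim54 is not a measured size, since 3 siControl libraries had no read of it and it entered the test through its siPAK4 reads. Across all tested genes such changes numbered 363 higher and 468 lower.

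**Figure D2:**
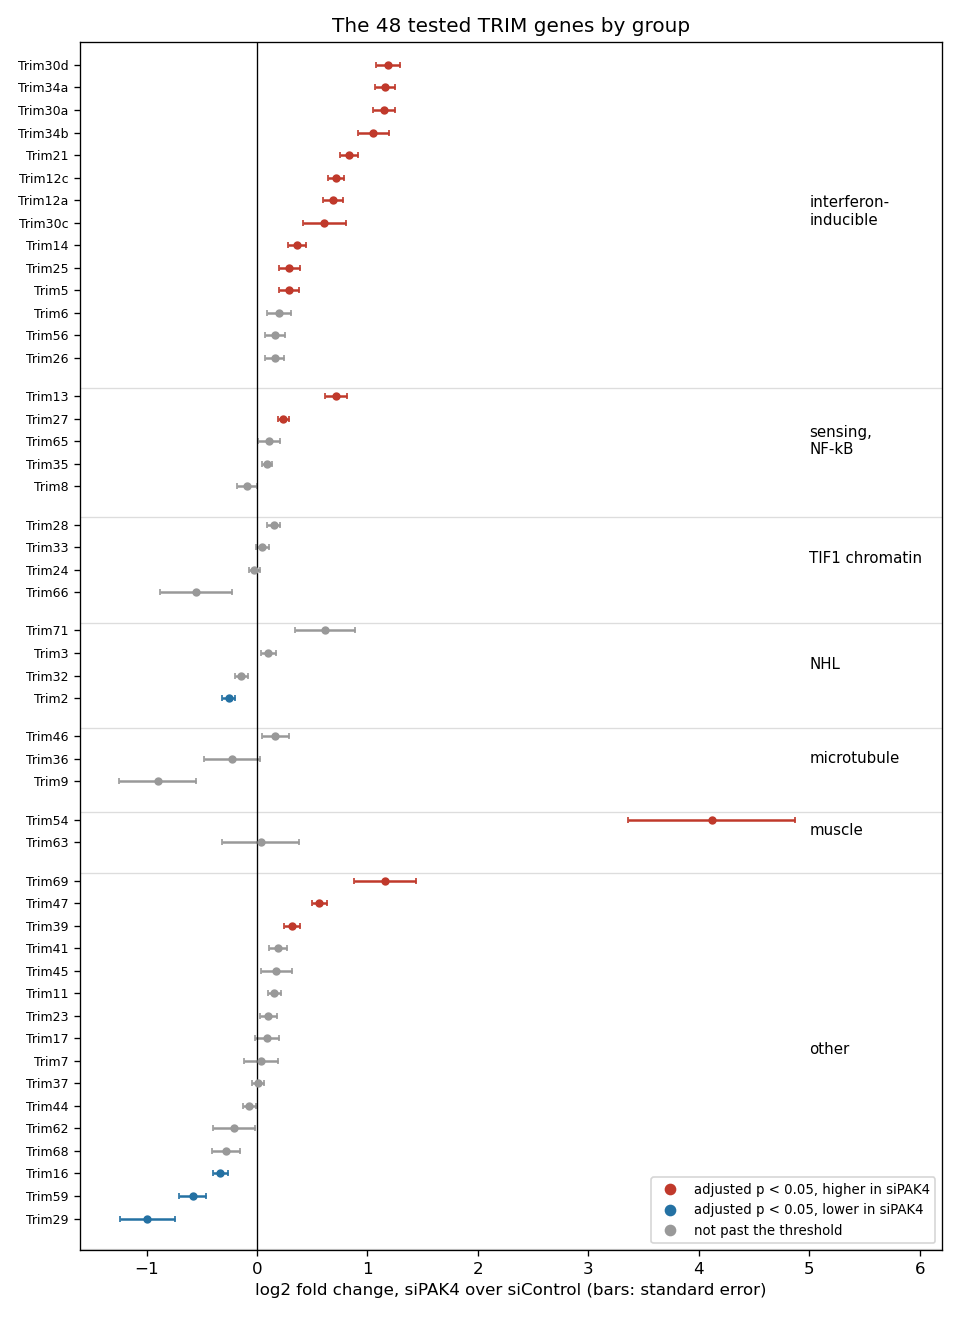
The log2 fold change of siPAK4 over siControl with its standard error for each of the 48 tested TRIM genes, arranged by group and coloured by the edgeR call. All 14 tested interferon-inducible genes lie above 0 and 11 of them are past the threshold, while the TIF1 and microtubule groups have no call.

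The interferon-inducible TRIM genes made up 11 of the 17 members that rose. Of these 11, 8 are close copies in the chromosome 7 cluster described below, whose reads may be shared, so they are not independent. Of 15 listed genes 14 were tested, of which 11 were higher, 0 lower and 3 not past the threshold, with a median log2 fold change of 0.65. Outside this group 6 of 34 tested members were higher (17.6%) and 4 were lower (11.8%), with a median of 0.069. The lists were chosen with earlier results of these data known, so this contrast is a description and not a test. For 9 of the 14 genes every siPAK4 library exceeded every siControl library, which held for 14% of all tested genes.

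Trim30a, whose mouse product restrains NF-kB signalling by acting on the TAB adaptors of TAK1, had 160, 179, 181 and 168 CPM in siPAK4 replicates 1 to 4 and 91.2, 67.4, 85.6 and 66.6 CPM in siControl replicates 1 to 4. The groups were far apart, and siControl replicates 1 and 3 were the higher pair of the controls. The log2 fold change was 1.15 (SE 0.10, adjusted p = 1.4e-05). Its neighbour Trim30d had 54.4, 58.1, 62.3 and 54.1 CPM in siPAK4 and 29.2, 21.2, 28.8 and 21.5 CPM in siControl, with the same controls high. Its log2 fold change was 1.19 (SE 0.11, adjusted p = 2.0e-05). Trim34a, another interferon-responsive gene with a B30.2 domain, had 45.5, 43.9, 44.0 and 41.5 CPM in siPAK4 and 22.3, 17.6, 21.6 and 16.7 CPM in siControl. It rose by 1.16 on the log2 scale (SE 0.0931, adjusted p = 8.2e-06), the smallest p among the members. Its less abundant copy Trim34b had 4.84, 4.35, 4.36 and 4.72 CPM in siPAK4 and 2.76, 2.04, 2.17 and 1.84 CPM in siControl, and its log2 fold change was 1.05 (SE 0.139, adjusted p = 0.00022).

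Intermediate rises were found for genes related to human TRIM5, the restriction factor that binds retroviral capsids, and for the antibody receptor gene Trim21. Trim12c, whose mouse product takes part in interferon and NF-kB signalling, averaged 56.3 ± 0.981 CPM in siPAK4 and 34.3 ± 3.35 CPM in siControl (0.72 on the log2 scale, adjusted p = 2.9e-05). Trim12a, which encodes a shorter relative, averaged 45.3 ± 2.46 CPM in siPAK4 and 28.1 ± 3.88 CPM in siControl (0.69, adjusted p = 0.00022). Trim21, the cytosolic receptor for antibody-coated virus, averaged 28.1 ± 2.29 CPM in siPAK4 and 15.8 ± 1.10 CPM in siControl (0.83, SE 0.0780, adjusted p = 2.0e-05). For these 3 genes no siPAK4 library overlapped a siControl library.

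Smaller rises were found for Trim14, Trim25, Trim5 and Trim30c. Trim14, whose RING-less product supports the mitochondrial adaptor MAVS, averaged 18.9 ± 1.83 CPM in siPAK4 and 14.7 ± 0.645 CPM in siControl (0.36, adjusted p = 0.0062). Its exons overlap Nans on the opposite strand, and the strand setting of the counting is not given, so reads of the pair cannot be told apart. Trim25, the ligase that activates the RNA sensor RIG-I, had 134, 114, 102 and 131 CPM in siPAK4 and 112, 99.2, 95.8 and 86.0 CPM in siControl, so that siPAK4 replicate 3 lay within the range of the controls. The call was narrow (0.29, SE 0.0973, adjusted p = 0.044). It was lost without siPAK4 replicates 1, 2 or 4 (adjusted p = 0.11, 0.067 and 0.12) and without siControl replicates 2, 3 or 4 (adjusted p = 0.093, 0.11 and 0.12), and ranged from 0.0050 to 0.12 over all alternatives.

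Trim5 averaged 10.7 ± 0.575 CPM in siPAK4 and 8.77 ± 0.818 CPM in siControl (0.29, adjusted p = 0.032). That call was also lost without siPAK4 replicates 1, 2 or 4 (adjusted p = 0.073, 0.061 and 0.084) and without siControl replicates 2, 3 or 4 (adjusted p = 0.084, 0.083 and 0.086), within a range of 0.0074 to 0.086 over all alternatives. Trim30c averaged 4.92 ± 1.10 CPM in siPAK4 and 3.22 ± 0.790 CPM in siControl, with overlapping groups (0.61, adjusted p = 0.035). It did not pass without siPAK4 replicates 3 or 4 (adjusted p = 0.066 and 0.071), without siControl replicates 1, 2 or 4 (adjusted p = 0.065, 0.11 and 0.094), or with TPM or FPKM (0.11 to 0.17), and its range over all alternatives was 0.0096 to 0.17. Trim6, Trim26 and Trim56 did not pass, with log2 fold changes of 0.20 (adjusted p = 0.21), 0.16 (adjusted p = 0.20) and 0.16 (adjusted p = 0.23). Trim56, whose product acts on STING and Toll-like receptor signalling, passed without siPAK4 replicate 3 (0.25, adjusted p = 0.0092), with a range of 0.0092 to 0.45 over all alternatives.

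The order of the controls recurred among these genes. Of the 11 that rose, 8 had their highest siControl level in replicate 1 and 8 had their lowest in replicate 4. Among siPAK4 libraries the highest level fell in replicate 3 for 5 of the 11 and in replicate 1 for 4. How often all tested genes showed these orders was not computed, and 8 of the 11 are close copies in the chromosome 7 cluster.

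**Figure D3:**
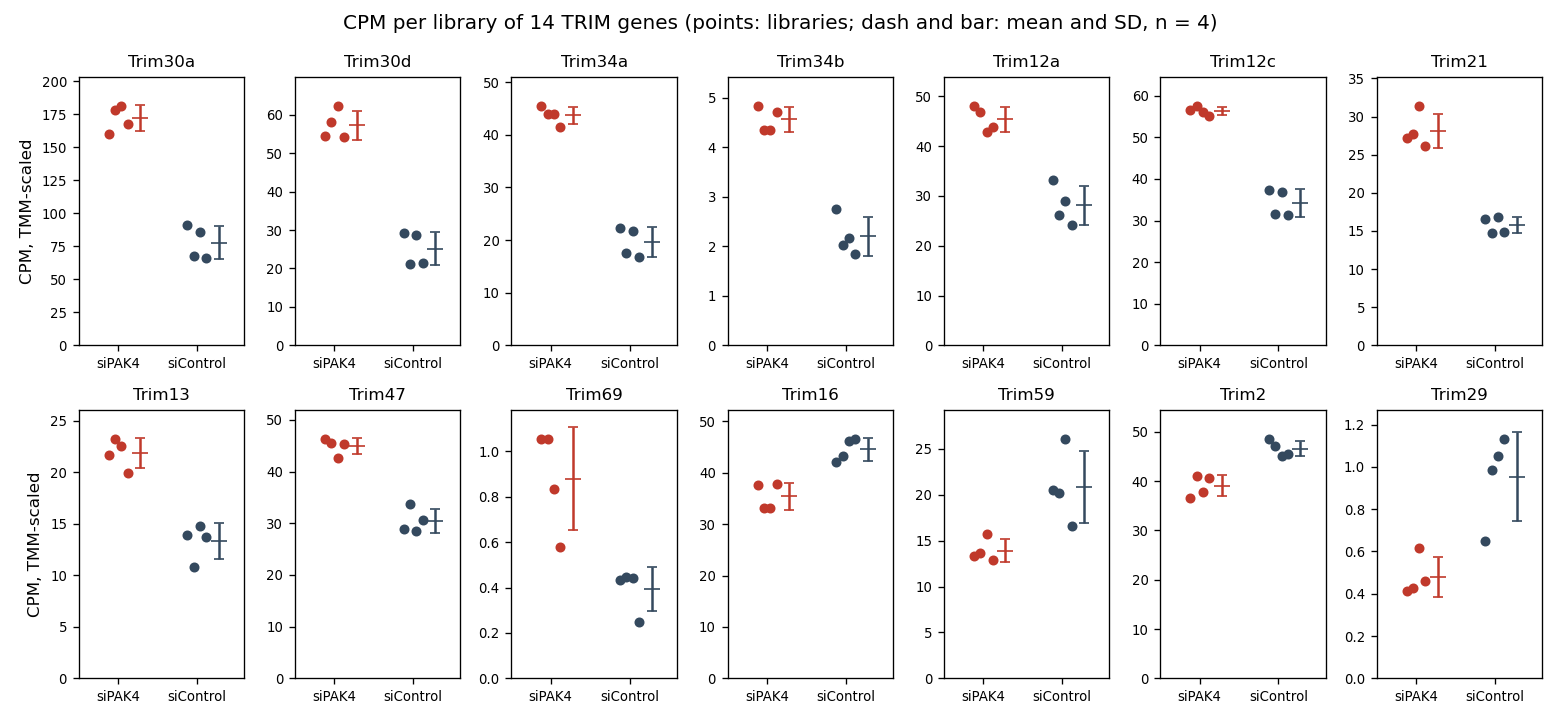
TMM-scaled CPM of 14 TRIM genes in each library, siPAK4 left and siControl right, with the mean and SD of 4 libraries. In the first 10 panels all siPAK4 points lie above all siControl points, and Trim16, Trim59, Trim2 and Trim29 are lower in every siPAK4 library.

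The Trim6, Trim34, Trim5, Trim12 and Trim30 genes lie side by side on mouse chromosome 7, from 104218795 to 104507853 in mm10, a stretch of 289 kb. Of the 10 members there, 9 were tested and 8 were higher, where 12.4% of all tested genes were called higher. The single other protein-coding gene of the stretch, the predicted gene Gm38525, had a log2 fold change of 0.67 and did not pass (adjusted p = 0.070). The pseudogene Gm16464 in the same stretch, named after its value was seen, was higher (0.48, adjusted p = 0.0066), and the long noncoding gene Gm15133 did not pass (1.24, adjusted p = 0.13). Fold changes did not follow the order along the chromosome, since Trim34a (1.16) stands between Trim6 (0.20) and Trim5 (0.29). Trim30b had 3, 0, 5 and 0 counts in siPAK4 and 2, 6, 7 and 3 counts in siControl and was not tested. The genes are close copies, and how the counting treated reads that match several of them is not given. The longest coding transcripts of Trim34a and Trim34b were 98.7% identical over 1827 aligned bases, those of Trim12a and Trim5 97.1% over 928, those of Trim12a and Trim12c 96.0% over 967, and those of Trim12c and Trim5 94.3% over 3710. Trim30a and Trim30d were 83.0% identical over 1998 bases. The separate values of Trim34a and Trim34b, and of Trim12a, Trim12c and Trim5, are therefore uncertain. Exons of Trim34a also overlap the antisense gene Gm47248, and those of Trim5 and Trim12c overlap snRNA genes on the same strand.

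**Figure D4:**
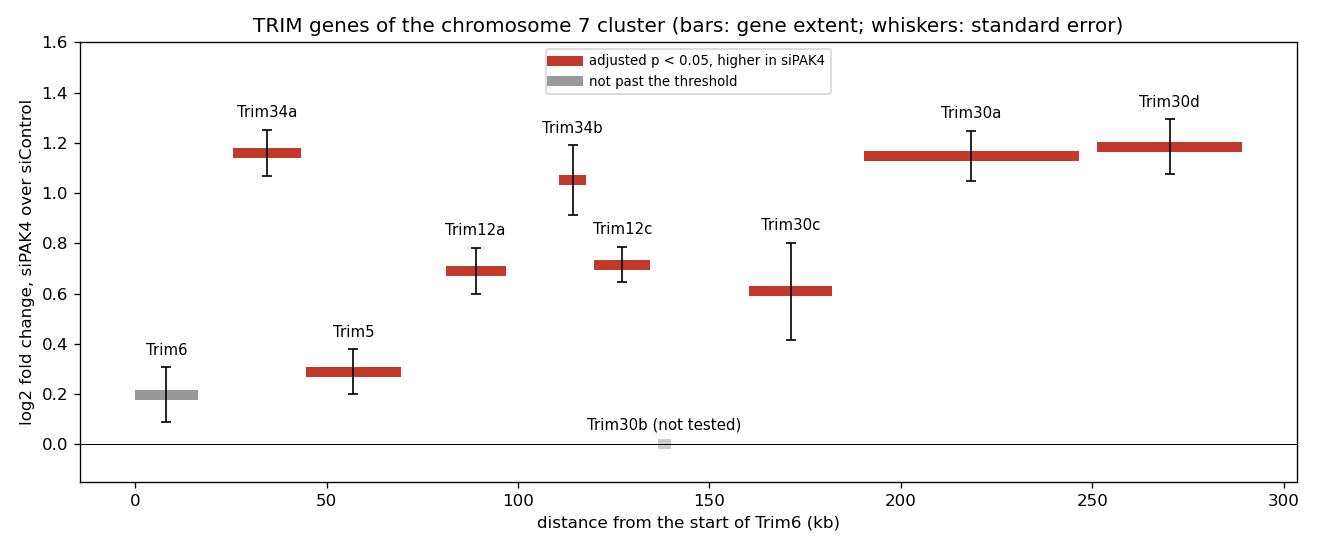
The log2 fold change of siPAK4 over siControl with its standard error for the TRIM genes of the chromosome 7 cluster, against the distance in kb from the start of Trim6, with bars as long as the genes. Trim34a, Trim34b, Trim30a and Trim30d lie above 1, Trim12a, Trim12c and Trim30c between 0.61 and 0.72, while Trim5 is at 0.29 and Trim6 at 0.20.

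Promoter windows of RefSeq genes (GRCm38.p6, the assembly also called mm10), which run from 250 bases before to 50 after each annotated start, were available for 53 of the 68 members. They were searched on both strands for GAAA followed by any 2 bases and GAAA, the core of the interferon-stimulated response element bound by ISGF3 and IRF factors; on the other strand it reads TTTC, 2 bases, TTTC. It occurred in at least 1 window of 9 of these 53 members. The share was 3.99% of all 27025 genes with a window and 3.94% of the 12908 tested ones. By call, 7 of 16 higher members, 1 of 2 lower members, 1 of 19 that did not pass and 0 of 16 that were not tested held it. Shares by call were not computed over all genes, so these counts are a description. Of the higher members these were Trim21 and, among the close copies of the chromosome 7 cluster, Trim5, Trim12a, Trim12c, Trim30a, Trim30d and Trim34a. A match describes the letters of the window and not a bound site.

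The 30 bases around each match, beginning 10 bases before it, are shown to set the neighbouring genes side by side: they were nearly identical among Trim5, Trim12a and Trim12c and among the Trim30a and Trim30d starts, but not between these sets. Each is written 5′ to 3′ on the strand of the gene, with the match in capitals.
Trim5 (chr7:104288136-104288165, minus strand): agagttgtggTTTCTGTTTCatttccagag
Trim12a (chr7:104315466-104315495, minus strand): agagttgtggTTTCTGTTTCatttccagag
Trim12c (chr7:104353359-104353388, minus strand): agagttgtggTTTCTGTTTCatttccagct
Trim30a, upstream start (chr7:104465210-104465239, minus strand): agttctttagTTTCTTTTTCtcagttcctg
Trim30a, downstream start (chr7:104446104-104446133, minus strand): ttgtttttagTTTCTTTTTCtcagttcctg
Trim30d (chr7:104507871-104507900, minus strand): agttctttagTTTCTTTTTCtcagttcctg
Trim34a (chr7:104244457-104244486, plus strand): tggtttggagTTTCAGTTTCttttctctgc
Trim21 (chr7:102565450-102565479, minus strand): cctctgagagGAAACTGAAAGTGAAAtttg
Trim26 (chr17:36836976-36837005, plus strand): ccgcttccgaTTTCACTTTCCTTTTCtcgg
Trim2 (chr3:84212791-84212820, minus strand): tcagctttggTTTCCTTTTCtctaagacag

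The stretches of Trim5 and Trim12a were identical in 30 of 30 bases, and that of Trim12c matched either in 28. Those of Trim30d and the upstream start of Trim30a were also identical in 30 of 30 bases, whereas Trim12a and Trim30d matched in 15 and Trim34a and Trim5 in 18. Genes with the same stretch did not share 1 fold change: the log2 fold change was 0.29 for Trim5 and 0.69 for Trim12a, within the uncertainty of their shared reads. Trim21 and Trim26 each held 2 overlapping matches, and Trim26 did not pass the test. Trim2 held a match and was lower in siPAK4. No match was found in the windows of Trim34b, Trim25, Trim13, Trim47, Trim27, Trim30c, Trim39, Trim54 and Trim69, whose levels were higher.

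Among regulators of nucleic acid sensing and NF-kB signalling outside the interferon-inducible group, 2 of 5 tested genes were higher and 0 lower, with a median log2 fold change of 0.11. The shares of all tested genes were 12.4% higher and 14.5% lower. Trim13, which encodes a ligase anchored in the endoplasmic reticulum that acts in autophagy of that organelle, had 21.7, 23.2, 22.5 and 19.9 CPM in siPAK4 and 13.9, 10.8, 14.8 and 13.7 CPM in siControl. Every siPAK4 library was above every siControl library (0.72, SE 0.0968, adjusted p = 0.00026). Trim27, whose product works with MAGE proteins on endosomal sorting, had a narrow spread in both groups, with 50.1, 49.8, 48.7 and 48.2 CPM in siPAK4 and 42.8, 41.4, 41.3 and 41.4 CPM in siControl. Its rise was small (0.24, SE 0.0501, adjusted p = 0.0046). Trim35 (0.090, adjusted p = 0.20), Trim8, an activator of TAK1 signalling (−0.090, adjusted p = 0.51), and Trim65, a ligase for the RNA sensor MDA5 (0.11, adjusted p = 0.48), did not pass. Trim38 had 0 to 6 counts and Trim31 had no read in any library.

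The TIF1 subfamily, whose members carry a PHD finger and a bromodomain and act on chromatin, had 0 of 4 genes past the threshold. Trim28 averaged 174 ± 12.5 CPM in siPAK4 and 157 ± 3.58 CPM in siControl (0.15, adjusted p = 0.084). It passed without siPAK4 replicate 3 (0.20, adjusted p = 0.0043) and with library totals (0.24, adjusted p = 0.014) or log2(FPKM + 1) (0.24, adjusted p = 0.016), with a range of 0.0043 to 0.20 over all alternatives. Trim33, which regulates SMAD4 in TGF-beta signalling, averaged 66.9 ± 0.725 CPM in siPAK4 and 64.6 ± 4.6 CPM in siControl (0.049, SE 0.0588, adjusted p = 0.59). Trim24, a coregulator of the retinoic acid receptor, averaged 38.7 ± 0.486 CPM in siPAK4 and 39.4 ± 0.606 CPM in siControl (−0.025, SE 0.0507, adjusted p = 0.76). Trim66 was scarce, with 0.542 ± 0.247 CPM in siPAK4 and 0.794 ± 0.0784 CPM in siControl (−0.55, SE 0.326, adjusted p = 0.24).

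Of the NHL-domain genes 1 of 4 was lower and 0 were higher, beside 14.5% and 12.4% of all tested genes. Trim2, which encodes a ligase for neurofilament light chain, had 36.6, 40.9, 37.8 and 40.7 CPM in siPAK4 and 48.5, 47.1, 45.1 and 45.6 CPM in siControl, with no overlap. It fell by 0.26 on the log2 scale (SE 0.0592, adjusted p = 0.0078). The call was lost with library totals (−0.17, adjusted p = 0.055), TPM with pseudocounts of 1 and 0.1 (adjusted p = 0.19 in each) and log2(FPKM + 1) (−0.11, adjusted p = 0.18), with a range of 0.00067 to 0.19 over all alternatives. Trim32, which is mutated in a human limb-girdle muscular dystrophy, also showed no overlap, at 27.9 ± 0.905 CPM in siPAK4 and 30.7 ± 1.23 CPM in siControl, without passing (−0.14, adjusted p = 0.098). Trim3 (0.10, adjusted p = 0.29) and the stem cell gene Trim71 (0.61, adjusted p = 0.12), which was at 0.569 CPM in siPAK4 and 0.372 CPM in siControl, did not pass.

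Microtubule and muscle TRIM genes were scarce. In the microtubule group 0 of 3 tested genes passed: Trim46, known from the axon initial segment (0.17, adjusted p = 0.35), Trim36 (−0.22, adjusted p = 0.56) and Trim9, a gene of neurons (−0.90, adjusted p = 0.075). Of the muscle group, Trim54 had 30, 26, 52 and 27 counts in siPAK4 replicates 1 to 4 and 7, 0, 0 and 0 counts in siControl replicates 1 to 4. It encodes MuRF3, a microtubule and sarcomere protein of striated muscle. It was called higher (log2 fold change 4.12, SE 0.756, adjusted p = 0.0021), but the size of the fold depends on the prior count because 3 controls had no read, and the gene entered the test through the siPAK4 libraries alone. Its exons overlap the antisense gene Gm15469. The related Trim63, or MuRF1, had 15, 32, 46 and 30 counts in siPAK4 and 38, 30, 18 and 29 counts in siControl and did not pass (0.032, SE 0.351, adjusted p = 0.96). Trim72, a membrane repair gene of muscle, was too low to test, with 12, 8, 16 and 10 counts in siPAK4 and 4, 4, 0 and 0 counts in siControl.

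Of the 16 tested members with other roles, 3 were higher and 3 were lower (18.8% each), beside 12.4% and 14.5% of all tested genes. Trim47 had 46.3, 45.6, 42.7 and 45.4 CPM in siPAK4 and 29.0, 33.6, 28.5 and 30.5 CPM in siControl, with no overlap (0.57, SE 0.0663, adjusted p = 9.6e-05). Its exons overlap those of Trim65 on the same strand, and Trim65 did not pass. Trim39, whose product stabilises the apoptosis protein MOAP-1, averaged 16.4 ± 0.912 CPM in siPAK4 and 13.2 ± 0.548 CPM in siControl (0.31, adjusted p = 0.0068). Trim69, a gene of centrosomes and the spindle, was scarce, with 1.05, 1.05, 0.832 and 0.579 CPM in siPAK4 and 0.433, 0.447, 0.441 and 0.248 CPM in siControl (1.16, SE 0.283, adjusted p = 0.010).

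The members that fell were also few and mostly modest. Trim16, which takes part in autophagy of damaged lysosomes, had 37.6, 33.1, 33.1 and 37.8 CPM in siPAK4 and 42.0, 43.4, 46.3 and 46.6 CPM in siControl. The groups did not overlap (−0.33, SE 0.0681, adjusted p = 0.0040). Its exons overlap Fbxw10 on the same strand. Trim59, a membrane-anchored member that is raised in many tumours, had 13.4, 13.6, 15.7 and 12.9 CPM in siPAK4 and 20.5, 20.2, 26.1 and 16.6 CPM in siControl. Its controls were more spread than its siPAK4 libraries (−0.58, SE 0.122, adjusted p = 0.0046). Trim29, an epithelial gene, was scarce, with 24, 25, 37 and 27 counts in siPAK4 and 36, 55, 62 and 64 counts in siControl (−0.99, SE 0.247, adjusted p = 0.011). In the same libraries 3 of 4 mesothelial markers were lower, with a summed level of 35.5 to 54.7 CPM in siPAK4 and 121 to 150 CPM in siControl. Of 4 markers of cholangiocytes, which are also epithelial, 3 were tested and 0 passed. The part of either cell type in the level of Trim29 was not tested. Another 10 members of this group did not pass. Trim37, a centrosome and peroxisome gene, was at 57.1 ± 1.24 CPM in siPAK4 and 56.7 ± 1.68 CPM in siControl (0.0094, SE 0.0504, adjusted p = 0.92), and Trim44, a RING-less member with a ubiquitin-protease type zinc finger, at 88.4 ± 1.57 CPM in siPAK4 and 92.8 ± 7.09 CPM in siControl (−0.070, adjusted p = 0.43). Trim11, which acts in protein quality control, showed no overlap without passing (0.16, adjusted p = 0.074). Trim41, whose exons overlap Rack1 on the opposite strand, passed without siPAK4 replicate 3 (0.24, adjusted p = 0.027) but not with all libraries (0.19, adjusted p = 0.10; 0.016 to 0.28 over all alternatives). The remaining 6, namely Trim7, Trim17, Trim23, Trim45, Trim62 and Trim68, had log2 fold changes from −0.28 (Trim68) to 0.17 (Trim45).

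The 20 members that were not tested had at most 21 counts in any library, and 7 of them had no read at all (Trim31, Trim40, Trim58, Trim60, Trim61, Trim67 and Trim75). Trim80 had 6, 3, 7 and 0 counts in siPAK4 and none in siControl, and Trim43a had 10, 13, 8 and 0 counts in siPAK4 and 0, 0, 4 and 21 counts in siControl, so that a single control library was the highest. Trim10, Trim15, Trim42, Trim43b, Trim43c, Trim50, Trim52 and Trim55 had between 0 and 6 counts in every library. At this depth no difference in them was detectable.

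Of 10 TRIM genes with other symbols, all tested, 2 were higher, 1 was lower and 7 did not pass, which is near the shares of all tested genes called higher (12.4%) and lower (14.5%). Pml, which builds nuclear bodies and is itself interferon-inducible, averaged 66.2 CPM in siPAK4 and 51.6 CPM in siControl (0.36, adjusted p = 0.026), and the microtubule-binding ligase gene Mid1 averaged 8.73 CPM in siPAK4 and 6.28 CPM in siControl (0.47, adjusted p = 0.015). Mid2 did not pass (−0.23, adjusted p = 0.14), and Fsd2, named after its value was seen, was lower at 0.280 CPM in siPAK4 and 0.577 CPM in siControl (−1.04, adjusted p = 0.024).

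Of 9 sensor, adaptor and related genes of nucleic acid sensing, 4 were higher, 3 were lower and 2 did not pass. For this list and the E2 and TIF1 partner lists below, the shares of all tested genes were 12.4% higher and 14.5% lower. The RNA sensor genes Ddx58, which encodes the Trim25 substrate RIG-I, and Ifih1, which encodes MDA5, rose by 0.95 (adjusted p = 1.6e-05) and by 1.19 (adjusted p = 3.1e-05). Rnf135, a RIG-I ligase (0.58, adjusted p = 0.0001), and Zc3hav1, the antiviral RNA-binding protein ZAP (0.41, adjusted p = 0.001), also rose. The adaptor genes Mavs (−0.24, adjusted p = 0.011), Tmem173, which encodes STING (−0.23, adjusted p = 0.0084), and Ticam1, which encodes the Toll-like receptor adaptor TRIF (−0.35, adjusted p = 0.025), fell. Of 9 E2 enzyme genes, Ube2l6, the E2 of the ubiquitin-like modifier ISG15, averaged 51.6 CPM in siPAK4 and 24.2 CPM in siControl (1.09, adjusted p = 4.0e-06). Ube2n (−0.25, adjusted p = 0.0043) and Ube2e1 (−0.21, adjusted p = 0.021) fell, and 6 did not pass. Of 8 partners of the TIF1 proteins, Smad4 rose (0.30, adjusted p = 0.0048), the heterochromatin protein gene Cbx5 fell (−0.29, adjusted p = 0.0025) and 6 did not pass.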

How the data were processed

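RNA of 4 siPAK4 and 4 siControl samples was prepared with a stranded mRNA kit, per the labels' protocols. One deposited table held whole-number counts with no normalization, FPKM and TPM, per the file headers; the authors scaled FPKM to depth and gene length, and TPM further to a fixed total, as deposited. The submitters' processing notes name HISAT2 2.1.0, Bowtie2 2.3.4.1, StringTie 2.1.3b and mm10. How reads were counted, by strand and where they match several genes, is not given in the sources used here. All value columns matched a sample.

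Counts (55728583 to 61535063 per library) were filtered with filterByExpr (minimum count 10), scaled by TMM and tested with edgeR 4.0.16 (quasi-likelihood, robust), with Benjamini-Hochberg adjustment over 17975 genes and a threshold of 0.05. Fold changes are siPAK4 over siControl. Alternatives used DESeq2 1.42.0, limma 3.58.1, other scalings, filters and units, each library left out, and a replicate block. The fit was also tested on simulated data. No 2 libraries of a group agreed within sampling noise (chi-square per degree of freedom 10.6 to 54.7).

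The members and lists were chosen with earlier results of these data known. Named were all members past the threshold, the 10 highest by TPM, members of the role groups, and partner genes past the threshold; other names were chosen after their values were seen. A second promoter motif was searched and is not reported here. TPM served for levels between genes.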

Additional observations from a re-analysis of the deposited data

Results flagged for a closer look

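In 9 of the 96 groups of 4 libraries examined, 1 library lay far from the other 3, by a gap over 0.829 of the whole range of the group, which chance gives in about 1 group in 20. Among siPAK4 libraries, replicate 3 had 155 CPM of Trim28, below 179.9 to 180.6 CPM in the others, and 36.2 CPM of Trim23, above 33.1 to 33.4 CPM. Replicate 4 of siPAK4 had 90.7 CPM of Trim44, above 87.5 to 87.7 CPM in the others. Among siControl libraries, replicate 1 had 42.8 CPM of Trim27 (41.3 to 41.4 CPM in the others), 28.8 CPM of Trim3 (27.3 to 27.5 CPM), 9.99 CPM of Trim5 (8.21 to 8.5 CPM) and 0.126 CPM of Trim54 (0 in the others). Replicate 3 of siControl had 40.3 CPM of Trim24, above 39.0 to 39.1 CPM. Replicate 4 of siControl had 0.248 CPM of Trim69, below 0.433 to 0.447 CPM in the others.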

How the results depend on the processing

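Over 18 alternatives, 17 of the 21 members past the threshold kept their call wherever they were tested, 6 of the other 27 passed it in at least 1. The sign of the log2 fold change turned in at least 1 alternative for 0 of the 21 and for 5 of the 27 (Trim7, Trim24, Trim37, Trim44 and Trim63), none of which was past the threshold in any alternative. The 4 that lost it in some were Trim2, Trim5, Trim25 and Trim30c. Trim25 was also lost without the low-count filter (adjusted p = 0.055), with limma-voom (0.051) and with TPM (0.091 and 0.089), and Trim5 with TPM (0.072 and 0.074). Between 14 and 22 members were higher and 3 or 4 lower, beside 1599 to 3877 of all tested genes higher and 1712 to 2998 lower. The median log2 fold change of the members was 0.25 with library totals, 0.20 with log2(TPM + 0.1), and 0.12 to 0.19 with 1 library left out; the cause was not tested. Deviations of same-numbered libraries of the 2 groups were weakly correlated (0.0348, −0.0473, 0.104 and −0.0372 for replicates 1 to 4). The same-numbered control was the best partner for siPAK4 replicates 1 and 3, but not for replicates 2 and 4. With 4 libraries per group these values cannot show whether the numbers pair the libraries. With the replicate block, 17 members were higher and 4 lower, with a median of 0.16, and 2056 genes were higher and 2531 lower. Depth limits the 20 members that were not tested.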
